A study of Mus musculus with 6 samples.

Results

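Of 358 protein-coding genes with a Chd4 promoter peak in siSCR neural stem cells, 64 had no promoter peak under their own name in the siSeh1 list. These 64 siSCR-only genes are 17.9% of the 358 (exact 95% interval 14 to 22.2%, which like those below covers counting error only) and a small set among the 21900 protein-coding genes of the RefSeq table. They were selected on the siSCR and siSeh1 lists themselves. A gene was included when a siSCR peak summit lay no more than 1000 bp from its annotated transcription start and no siSeh1 summit carrying its name did. Throughout, summit means the midpoint of a deposited peak interval, not a measured point of highest signal. The 294 genes that met the first condition and had such a siSeh1 peak served for comparison and are called retained here. By position, not all of them lacked Chd4 in siSeh1. In 13 of the 64 a siSeh1 summit lay 28 to 309 bp from the siSCR summit and had been assigned to another gene, while the other 51 had none within 1 kb.

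The cells were primary neural stem cells cultured from P0 mouse cortex with EGF and bFGF, and the assay was ChIP-seq, which sequences the DNA bound to an immunoprecipitated protein. Chd4 was profiled in 4 libraries. The Ctrl, siSCR and siSeh1 cells were of wild type genotype in growth medium, and the iKO cells were of mutant genotype with 4-OH-TAM (4-hydroxytamoxifen) in the medium. These abbreviations are not expanded in the labels. Here siSeh1 is taken to be silencing of Seh1, siSCR its control, and iKO the induced deletion of Seh1. The other 2 libraries targeted Seh1, with the flag tag (Seh1-flag) or in wild type Ctrl cells in growth medium (Seh1 Ctrl). The Seh1-flag library is titled iKO, although its genotype is given as wild type with 4-OH-TAM, and its list header begins with oe. The promoter that drives the inducible recombinase, the targeted allele, the number of mice and the degree of silencing are not stated in the labels.

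Each group had 1 library, so no difference between lists has a replicate check and no p-value is given. The siSCR list held 2606 Chd4 peaks and the siSeh1 list 26935, while iKO had 21294 and Ctrl 1154. Seh1-flag had 24961 and Seh1 Ctrl 20833. Library depth is unknown, and less binding in siSCR than in siSeh1 cannot be told apart from a shallower library. Deposited peak scores rank peaks within a list and are not compared between lists. All Seh1 Ctrl scores are 0, so that list has no ranking. None of the 64 was on the short marker lists used for neural stem cells, neurons, astrocytes, oligodendrocytes, microglia or endothelium.

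Chd4 is the motor of NuRD, a complex that slides nucleosomes and, with its histone deacetylase subunits, is known for restraining transcription at promoters and enhancers of progenitor cells. Seh1 is a nucleoporin of the Y-shaped scaffold of the nuclear pore and also a subunit of the GATOR2 complex of amino acid sensing. Many housekeeping promoters fire in both directions, so the starts of neighbouring genes on opposite strands can lie close together, and a peak between them is assigned to whichever start is nearer.

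The 13 renamed promoters are shown first, because they include the 2 highest siSCR scores of the set. For 5 of them the stretch upstream of the start of the siSCR-only gene is given (RefSeq, GRCm38.p6, the assembly of mm10), ended before the partner start where one came within 250 bases. Each is written 5′ to 3′ on the strand of the gene, with each CCAAT box, or ATTGG where the box lies on the other strand, in capitals. Bases are counted from 1 at the 5′ end.
Hsp90b1 chr10:86705445-86705694, minus strand: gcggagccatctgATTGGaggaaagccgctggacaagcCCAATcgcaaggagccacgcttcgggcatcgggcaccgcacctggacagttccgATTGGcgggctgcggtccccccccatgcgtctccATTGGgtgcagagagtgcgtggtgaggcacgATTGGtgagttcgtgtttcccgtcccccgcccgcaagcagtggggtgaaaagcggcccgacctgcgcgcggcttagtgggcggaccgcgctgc
Derl2 chr11:71019304-71019553, minus strand: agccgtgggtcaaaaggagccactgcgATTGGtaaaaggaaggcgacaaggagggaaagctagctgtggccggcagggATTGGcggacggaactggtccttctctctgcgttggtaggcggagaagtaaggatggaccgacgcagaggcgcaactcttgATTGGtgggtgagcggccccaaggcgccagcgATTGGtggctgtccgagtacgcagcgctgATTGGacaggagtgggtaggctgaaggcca
Nudcd2 chr11:40733438-40733660, plus strand: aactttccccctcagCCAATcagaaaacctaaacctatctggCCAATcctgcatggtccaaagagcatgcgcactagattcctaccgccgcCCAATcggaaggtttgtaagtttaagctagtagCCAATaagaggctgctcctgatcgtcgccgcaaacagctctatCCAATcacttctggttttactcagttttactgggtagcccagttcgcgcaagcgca
Glyr1 chr16:5049911-5050056, minus strand: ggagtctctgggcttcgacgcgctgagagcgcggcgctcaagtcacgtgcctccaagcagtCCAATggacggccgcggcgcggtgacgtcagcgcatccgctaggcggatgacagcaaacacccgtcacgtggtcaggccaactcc
Kdm1b chr13:47043249-47043498, plus strand: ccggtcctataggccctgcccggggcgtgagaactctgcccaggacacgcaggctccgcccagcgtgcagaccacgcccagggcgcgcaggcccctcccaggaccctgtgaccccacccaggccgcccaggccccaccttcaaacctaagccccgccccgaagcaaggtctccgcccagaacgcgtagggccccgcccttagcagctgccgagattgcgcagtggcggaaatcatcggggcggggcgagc

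The summits fell inside these runs. In Hsp90b1 the siSCR summit was at base 74 and the siSeh1 summit at base 43, and in Derl2 they were at bases 101 and 73. In Nudcd2 they were at bases 134 and 87, in Glyr1 at 110 and 57, and in Kdm1b at 114 and 80. Hsp90b1, Derl2 and Nudcd2 each show 5 boxes in the stretch printed, Glyr1 shows 1 and Kdm1b none.

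Hsp90b1 encodes Grp94, the HSP90 chaperone of the endoplasmic reticulum. Its siSCR summit at chr10:86705621, 177 bp upstream of the start, scored 14.5 and ranked 22 of 2606. The siSeh1 summit lay 31 bp away, scored 17.5, ranked 130 of 26935 and was named for Ttc41. An iKO summit lay 9 bp from the siSCR summit (iKO score 6.53). Derl2, a derlin that helps pull misfolded proteins out of the endoplasmic reticulum, had the next highest siSCR score, 13.2 at chr11:71019453, rank 25. Its siSeh1 summit was 28 bp away with a score of 27.2, rank 27, and was named for Mis12, a kinetochore gene whose start lies 308 bp from that of Derl2 on the opposite strand. The iKO summit there, 74 bp from the siSCR summit with an iKO score of 10.9, was also named for Mis12. These 2 genes made up the group of endoplasmic reticulum protein quality control, and both had Chd4 summits in siSCR, siSeh1 and iKO at the promoter.

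Nudcd2 codes for a co-chaperone with a NudC domain. It had a siSCR summit at chr11:40733571 (score 8.39, rank 83), a siSeh1 summit 47 bp away (score 23.0, rank 52) named for the spindle gene Hmmr, and an iKO summit 2 bp away (score 3.17) named for Nudcd2. Chtf18, part of the alternative clamp loader for sister chromatid cohesion, scored 8.09 at chr17:25727514 (rank 110). The siSeh1 summit 73 bp away scored 15.1 (rank 208) and was named for Rpusd1, and no iKO summit lay within 1 kb. Chek2, the DNA damage checkpoint kinase, had a weaker siSCR summit at chr5:110840054 (score 3.07, rank 1790). A siSeh1 summit 222 bp away scored 15.2 (rank 206) and was named for Hscb, an iron-sulfur cluster co-chaperone. Thus 2 of the 5 genome maintenance genes of the set, Chtf18 and Chek2, had a siSeh1 summit at the promoter.

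Among regulators of transcription and chromatin the renamed promoters were those of Glyr1, Kdm1b and Prmt1. Glyr1 binds nucleosomes and is a cofactor of the demethylase LSD2, which Kdm1b encodes. Glyr1 scored 5.70 at chr16:5049947 (rank 273). The siSeh1 summit was 53 bp away (score 15.5, rank 180) and named for Ubn1, a subunit of the HIRA histone chaperone, and an iKO summit 54 bp away scored 11.5, the highest iKO promoter score of any of the 64. Kdm1b scored 2.81 at chr13:47043362 (rank 2092), with a siSeh1 summit 34 bp away (score 15.5, rank 180) and an iKO summit 116 bp away (score 10.4), both named for the drug-metabolising enzyme gene Tpmt. Prmt1, the main asymmetric arginine methyltransferase, scored 4.13 at chr7:44986482 (rank 806). Its siSeh1 summit was 309 bp away (score 6.76, rank 1169), its iKO summit 298 bp away (score 6.23), and both carried the name Gm15545. The 309 bp of Prmt1 was the longest distance among the 13.

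Tdrkh, Rrp9, Ndufaf2, Rwdd2a and Hspb6 complete the renamed promoters. Tdrkh is a tudor protein of the piRNA pathway and scored 5.86 at chr3:94413126 (rank 259), with a siSeh1 summit 28 bp away (score 16.7, rank 143, named 1700040D17Rik) and an iKO summit 41 bp away (score 7.44). Rrp9, of the U3 ribonucleoprotein of ribosomal RNA processing, scored 4.33 at chr9:106477186 (rank 689), with a siSeh1 summit 60 bp away (score 8.14, rank 794, named Parp3) and an iKO summit 27 bp away (score 4.89). Ndufaf2, an assembly factor of respiratory complex I, scored 5.87 at chr13:108158651 (rank 254). Its siSeh1 summit was 73 bp away (score 5.44, rank 1863) and named for the transcription-coupled repair gene Ercc8. No iKO summit lay within 1 kb of it. Rwdd2a scored 5.10 at chr9:86571934 (rank 417), with siSeh1 37 bp away (score 13.3, rank 274) under Pgm3 and iKO 1 bp away (score 5.70). Hspb6, a small heat shock protein, scored 4.86 at chr7:30552450 (rank 477), with siSeh1 76 bp away (score 11.5, rank 393) under Proser3 and no iKO summit within 1 kb.

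Across the 13 the siSeh1 summit ranked between 27 and 1863 of 26935, so each stood within as many top siSeh1 peaks as the whole siSCR list holds. In 11 of the 13 the partner start lay 113 to 480 bp from that of the siSCR-only gene, on the opposite strand. The start of Ttc41 is 7321 bp away in the RefSeq table, and Hscb was not matched in it. The deposited annotation uses nearer starts for these 2, with the siSeh1 summit at -159 bp from Ttc41 and -55 bp from Hscb. By that annotation all 13 siSeh1 summits lay within 1 kb of the start of the gene they are named for. All 13 siSeh1 summits were also within 90 to 371 bp of the RefSeq start of the siSCR-only gene itself. In the deposited annotation, 11 of the 13 partner names count as protein-coding genes with a siSeh1 promoter peak and no siSCR one, and none of the 13 names had a siSCR promoter peak. The same stretch of DNA thus entered a count by gene name once as a loss and, in these 11, once as a gain. No Seh1 peak lay within 1 kb of any of the 13, the nearest being 2634 bp away for Seh1-flag and 3326 bp for Seh1 Ctrl. Such peaks were also rare at retained genes, with 4 of 294 for Seh1-flag and 4 of 294 for Seh1 Ctrl. The map of the 13 promoters draws the Chd4 summits.

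**Figure D1:**
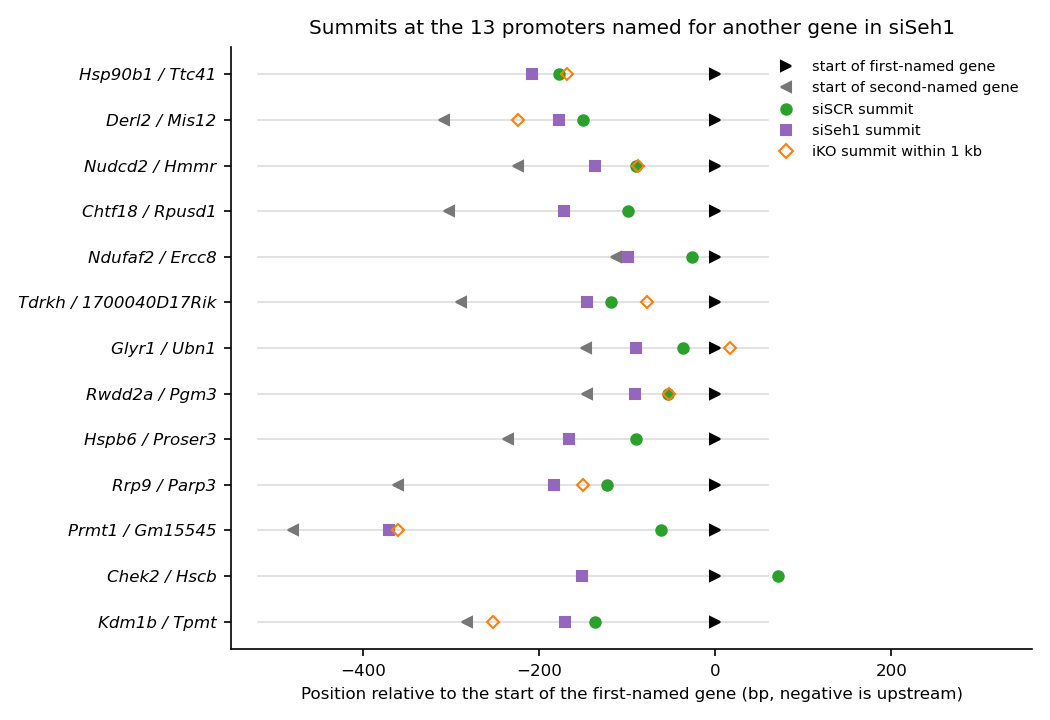
Positions of Chd4 summits at the 13 renamed promoters, in bp from the start of the siSCR-only gene (first name), with negative values upstream. The second name is the gene of the siSeh1 summit, and arrowheads are gene starts. siSCR circles and siSeh1 squares lie 28 to 309 bp apart, the siSeh1 square on the side of the partner gene. That side is fixed by the selection, since each summit is named for the nearer start, and shows no shift of Chd4. No second arrowhead is drawn for Ttc41 or Hscb.

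The remaining 51 genes had their nearest siSeh1 summit 2036 to 174931 bp from the siSCR summit (median 29584 bp), and no gene of the 64 had a distance between 309 and 2036 bp. Their siSCR scores ran from 2.17 to 8.43 with a median of 3.5, beside 5.7 (2.81 to 14.5) for the renamed promoters and 5.56 (2.24 to 59.1) for the retained genes. Of the 12 siSCR-only genes with the highest siSCR score, 7 were renamed promoters, against 6 of the other 52. The rule used this list, so these scores are description only. Over all 358 genes, 306 (85.5%, 81.4 to 89%) had a siSeh1 summit within 1 kb of the siSCR summit. Those without one numbered 3 of the 90 genes with the highest siSCR scores (7.01 to 59.1) and 3 of the next 89. They numbered 11 of the following 89 and 35 of the 90 with the lowest scores (2.17 to 4.15). Genes with no siSeh1 summit nearby thus lay mostly at the low end of siSCR scores. In 23 of the 51 a siSeh1 peak elsewhere, beyond 1 kb from the start, carried the name of the gene. The nearest such peak lay from 2283 bp (Speer4c) to 149184 bp (Taf4) from the start. Every peak is named for some gene, and the share among other genes was not counted.

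**Figure D2:**
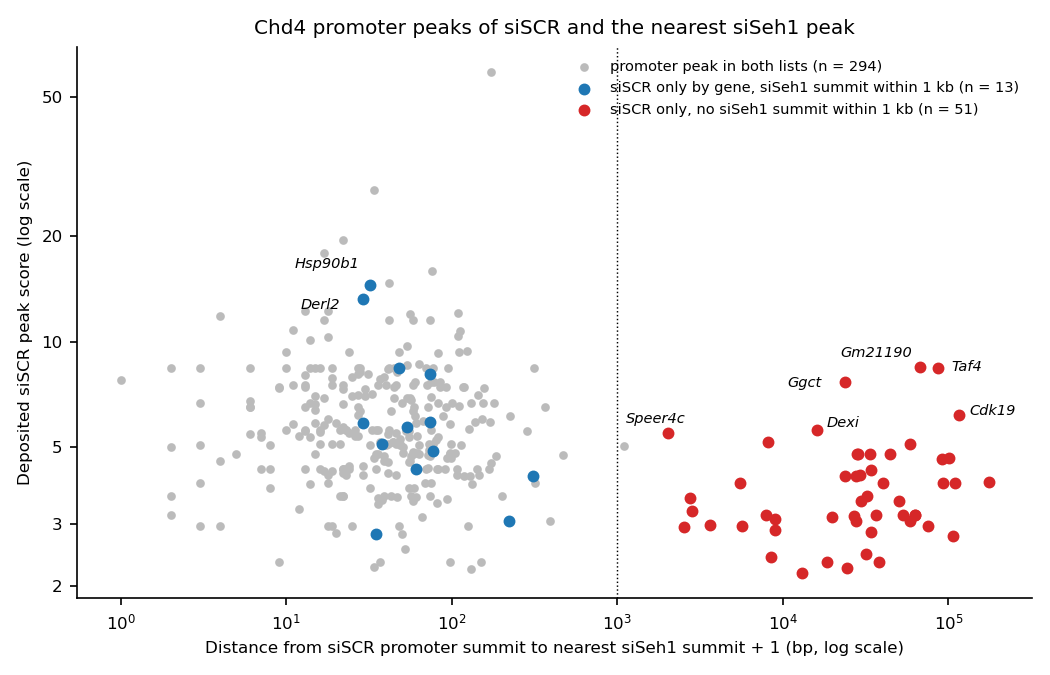
Deposited siSCR score of each promoter peak (log axis) against the distance in bp to the nearest siSeh1 summit, plus 1 (log axis), for 358 genes, with a dotted line at 1 kb. The 13 renamed promoters (blue) sit among the 294 retained genes (grey), and the 51 others (red) lie at 2036 bp or more with siSCR scores up to 8.43.

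Stretches of 5 of the 51 promoters show how different these sequences are (RefSeq, GRCm38.p6, 250 bases upstream of the start, 5′ to 3′ on the strand of the gene, boxes in capitals as above). Ggct, Taf4 and Gm9758 had iKO summits there. Olfr606 and Krt33b belong to tissues other than brain, and Gm9758 lies in the Speer gene cluster on chromosome 5.
Ggct chr6:54992868-54993117, minus strand: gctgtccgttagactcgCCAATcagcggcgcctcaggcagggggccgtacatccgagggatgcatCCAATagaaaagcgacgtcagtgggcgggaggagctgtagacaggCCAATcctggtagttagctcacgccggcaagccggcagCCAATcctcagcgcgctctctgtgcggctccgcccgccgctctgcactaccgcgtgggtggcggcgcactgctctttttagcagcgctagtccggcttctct
Taf4 chr2:179976647-179976896, minus strand: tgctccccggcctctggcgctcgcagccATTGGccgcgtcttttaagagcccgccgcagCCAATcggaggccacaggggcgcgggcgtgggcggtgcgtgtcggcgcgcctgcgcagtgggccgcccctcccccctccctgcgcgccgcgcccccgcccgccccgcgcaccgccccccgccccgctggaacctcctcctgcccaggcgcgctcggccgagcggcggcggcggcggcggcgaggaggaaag
Olfr606 chr7:103451089-103451338, plus strand: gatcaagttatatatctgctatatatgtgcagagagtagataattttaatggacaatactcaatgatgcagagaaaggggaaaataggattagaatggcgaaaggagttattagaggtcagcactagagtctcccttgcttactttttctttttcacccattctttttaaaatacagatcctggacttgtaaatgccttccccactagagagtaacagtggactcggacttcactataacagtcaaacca
Krt33b chr11:100029869-100030118, minus strand: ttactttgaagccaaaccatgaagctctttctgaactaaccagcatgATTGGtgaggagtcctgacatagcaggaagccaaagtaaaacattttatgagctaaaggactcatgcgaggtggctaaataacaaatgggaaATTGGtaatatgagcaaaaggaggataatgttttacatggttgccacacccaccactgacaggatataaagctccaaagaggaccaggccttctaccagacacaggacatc
Gm9758 chr5:14914890-14915139, minus strand: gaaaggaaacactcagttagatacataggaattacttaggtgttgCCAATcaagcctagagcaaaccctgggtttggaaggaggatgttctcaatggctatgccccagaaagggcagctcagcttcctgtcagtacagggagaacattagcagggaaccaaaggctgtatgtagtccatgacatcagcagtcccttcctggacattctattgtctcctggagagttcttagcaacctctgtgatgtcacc
Taf4 holds 40 CpG dinucleotides in this run and Ggct 24, against 2 in Olfr606, 1 in Krt33b and 0 in Gm9758.

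Taf4, a core subunit of the TFIID complex that starts transcription, had a siSCR score of 8.39 at chr2:179976708 (rank 83). The nearest siSeh1 summit was 86797 bp away at Mtg2 (score 5.41, rank 1905), whereas an iKO summit with a score of 8.39 lay 92 bp from the siSCR summit under the name 4921531C22Rik. Ggct, an enzyme of glutathione turnover, scored 7.64 at chr6:54992931 (rank 127), with siSeh1 23744 bp away near Nod1 (score 5.38, rank 2391) and iKO 46 bp away (score 5.79). Psmc3ip, a partner of the meiotic recombinase Dmc1, scored 5.15 at chr11:101095418 (rank 411), with siSeh1 8139 bp away (score 3.35, rank 13408) and iKO 13 bp away (score 4.74). Msh3, a mismatch repair subunit, scored 4.75 at chr13:92355120 (rank 498), with siSeh1 28190 bp away (score 4.58, rank 3562) and iKO 20 bp away (score 4.87). At these 4 promoters the Chd4 summits of siSCR and iKO lay within 92 bp of each other, while siSeh1 had none within 1 kb.

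Klf11, a Krüppel-like zinc finger factor, scored 3.50 at chr12:24651158 (rank 1200), with iKO 142 bp away (score 6.55) and siSeh1 29584 bp away (score 3.05, rank 15987). Sort1, the sorting receptor sortilin, scored 3.16 at chr3:108283974 (rank 1698), with iKO 14 bp away (score 3.39) and siSeh1 26886 bp away at Psma5 (score 7.19, rank 985). Pcx, the pyruvate carboxylase that refills the citric acid cycle, scored 2.34 at chr19:4510184 (rank 2366), with iKO 110 bp away (score 6.49) and siSeh1 18482 bp away (score 2.27, rank 25230). Cds2, of phosphatidylinositol synthesis, scored 2.95 at chr2:132285380 (rank 1992) and had its nearest siSeh1 summit 2511 bp away under its own name (score 4.55, rank 4953). Its iKO promoter peak (score 5.70) was 22120 bp from the siSCR summit, at another start of the gene, so the gene matched and the position did not.

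In all, 16 of the 64 genes had an iKO promoter peak (25%, 15 to 37.4%), beside 5.2% of all protein-coding genes and 223 of the 294 retained genes (75.9%, 70.5 to 80.6%). The rule did not use the iKO list. Besides those described they were Gm9758, Gm11559 and 6430571L13Rik. The share of siSCR-only genes lay between that of all genes and that of retained genes, and the differences were not tested. Siting peaks by position gave 19 of 64 with an iKO summit within 1 kb of the siSCR summit. That count adds Derl2, Taf4, Prmt1 and Kdm1b, whose iKO summits carry other names, and drops Cds2. By gene name the share was 6 of 13 among renamed promoters and 10 of 51 among the rest. At 41 of the 64 promoters neither siSeh1 nor iKO had a summit within 1 kb. The matrix of nearest distances sets the 5 other lists side by side.

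**Figure D3:**
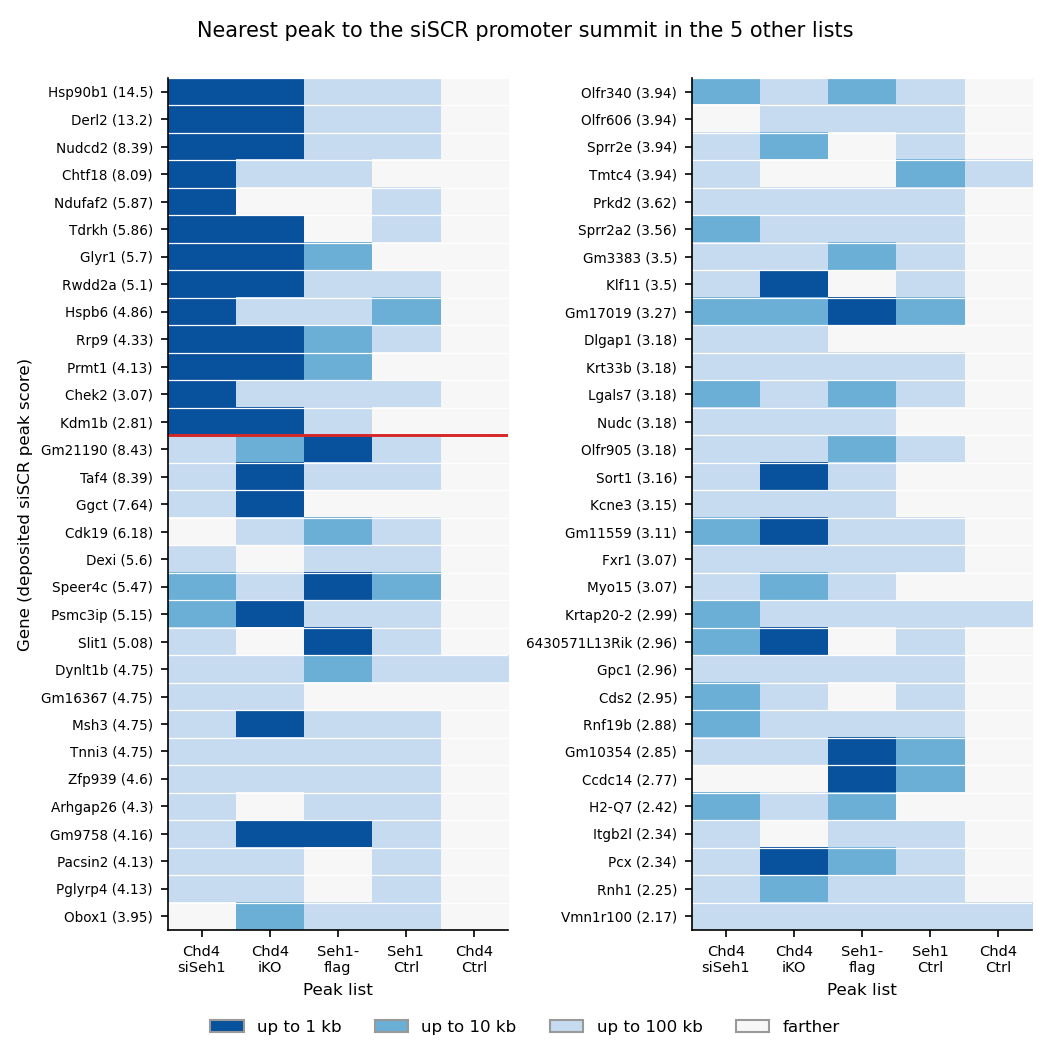
Nearest summit in each of the 5 other lists to the siSCR promoter summit of each gene drawn, as distance classes from dark (up to 1 kb) to white (over 100 kb). Deposited siSCR scores stand in brackets, the red line parts the 13 renamed promoters from the others, and dark iKO cells number 19 over both panels, whereas the Chd4 Ctrl column has none.

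The remaining members of high siSCR score had no summit within 1 kb in siSeh1 or iKO. Cdk19, a kinase of the Mediator complex, scored 6.18 at chr10:40348761 (rank 234), and its nearest siSeh1 summit was 116163 bp away at Rpf2 (score 4.58, rank 3562). A Seh1-flag summit lay 1812 bp away. Dexi scored 5.60 at chr16:10543107 (rank 284), with siSeh1 16013 bp away under its own name (score 3.35, rank 13408). Gm21190 also belongs to the 12 genes of highest siSCR score. Obox1, Olfr606 and Ccdc14 were also among the 5 promoters most remote from siSeh1. Obox1, an oocyte homeobox gene, scored 3.95 at chr7:15546727 (rank 849), 174931 bp from a siSeh1 summit at its relative Obox5 (score 5.98, rank 1556). Olfr606, an odorant receptor gene, scored 3.94 at chr7:103451144 (rank 851), 110317 bp from one at Olfr599 (score 3.05, rank 15987). Ccdc14 scored 2.77 at chr16:34690435 (rank 2194), with siSeh1 106623 bp away (score 4.91, rank 2903). These promoters stood over 100 kb from any siSeh1 summit.

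By function, with groups drawn up after the values were seen, the 51 fell into several kinds. Retained genes were not grouped, so no group count has a share among other genes beside it. Whether any kind is more frequent in this set was not tested. A group labelled neurons and axons held 7 genes, and none of them had a siSeh1 summit within 1 kb. Whether these genes are specific to neurons was not examined. Slit1, a secreted axon repellent, scored 5.08 at chr19:41743292 (rank 421), with siSeh1 58884 bp away (score 6.69, rank 1182), and a Seh1-flag summit lay 75 bp away (score 5.39). Lower siSCR scores were found for Arhgap26, a regulator of small GTPases (4.30), Pacsin2, which bends membranes in endocytosis (4.13), Dlgap1, a scaffold of the postsynaptic density (3.18), Sort1 (3.16) and the glypican Gpc1 (2.96). The nuclear migration and dynein genes beside Nudcd2 were Nudc (3.18) and the dynein light chain gene Dynlt1b (4.75), with siSeh1 36436 and 33838 bp away. Fxr1, a relative of the fragile X protein (3.07), and the ribonuclease inhibitor gene Rnh1 (2.25) were the RNA genes without a siSeh1 summit nearby. Zfp939 is a zinc finger gene (4.6). Further genes without a functional group were Tmtc4 (3.94), Prkd2 (3.62), Kcne3 (3.15), Rnf19b (2.88) and H2-Q7 (2.42), besides Gm16367 and Gm3383.

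Genes of tissues other than brain made up 15 of the 51, with siSCR scores of 2.17 to 4.75 (median 3.18). Their share among retained or all protein-coding genes was not counted. They comprised the odorant receptor genes Olfr340, Olfr606 and Olfr905, the vomeronasal receptor gene Vmn1r100, the hair keratin gene Krt33b and keratin-associated genes Krtap20-2 and Gm11559. Others were the cornified envelope genes Sprr2e and Sprr2a2, the keratinocyte galectin Lgals7, the skin peptidoglycan receptor Pglyrp4, cardiac troponin I (Tnni3), the inner ear myosin Myo15, Itgb2l and Obox1. None had a siSeh1 summit within 1 kb, and 1, Gm11559, had an iKO promoter peak. In 8 of the 15 the siSCR summit was annotated as promoter-TSS, and the others were placed in exons or introns. For comparison, promoter-TSS was the annotation in 13 of 13 renamed promoters, 38 of the 51 others and 276 of 294 retained genes. Several of these families, like the Speer, Sprr2, Obox, Dynlt1 and H2-Q genes, have closely related copies, among which the assignment of reads is uncertain.

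Seh1-flag promoter peaks were found at 7 of the 64 genes (10.9%, 4.51 to 21.2%), beside 1.34% of all protein-coding genes and 6 of the 294 retained genes. These were Gm21190, Speer4c, Gm9758, Gm17019, Gm10354, Slit1 and Ccdc14. The first 5 lie in the Speer cluster of chromosome 5, a family of testis-expressed genes, and all 5 siSCR-only genes of the cluster were among the 7. Windows of 200 kb around these 5 summits held 25 to 38 siSCR peaks and 58 to 89 Seh1-flag peaks but 1 to 4 siSeh1 peaks. The median around all 64 was 1 siSCR, 2 Seh1-flag and 3 siSeh1 peaks. Dense siSCR peaks were not limited to the cluster, since the window around Dynlt1b held 16 siSCR, 6 Seh1-flag and 4 siSeh1 peaks. At Speer4c the siSCR summit (score 5.47, rank 361, chr5:15714024) and the Seh1-flag summit (score 10.1) were 2 bp apart, and siSeh1 was nearest at 2036 bp (score 3.68, rank 11347). The nearest Seh1-flag summits of the other 4 lay 399 to 652 bp away. The 300-base promoters of Gm17019 and Speer4c were 98% identical, so reads of the 2 may not be separable. Outside the cluster 2 of the other 46 genes without a nearby siSeh1 summit had a Seh1-flag promoter peak, Slit1 and Ccdc14, the latter 339 bp from the siSCR summit (score 4.83). Genomic copy number and the multiply mapped share of the reads were not tested.

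In the Seh1 Ctrl list only Gm3383 had a promoter peak (1 of 64, beside 1.03% of protein-coding genes and 2 of 294 retained genes). That peak lay 359304 bp from the siSCR summit of Gm3383, so the gene matched and the position did not. No Seh1 Ctrl peak lay within 1 kb of any of the 64 siSCR summits, beside 4 of 294 retained ones. The nearest to any of the 64 was 1951 bp away, at Speer4c. None of the 64 had a Chd4 Ctrl promoter peak, and none had a Chd4 Ctrl summit within 10 kb. The closest was 11749 bp from Krtap20-2. Both counts were also 0 of 294 for retained genes. The whole Chd4 Ctrl list had a promoter peak at only 4 protein-coding genes. Neither Chd4 nor Seh1 had a listed peak at these siSCR summits in Ctrl cells.

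Base composition, which the rule did not use, differed between the 2 kinds of siSCR-only promoter as a description, without a test. RefSeq promoters (250 bases before to 50 after the start) were matched for 49 of the 64 genes, taking the RefSeq start nearest to the siSCR summit and only when it lay within 1000 bp. The rest, among them Cdk19, Slit1, Dynlt1b, Gm16367, Arhgap26, Pglyrp4, Olfr905, Sort1, Gpc1, Ccdc14, Gm3383, Dlgap1 and Sprr2a2, are named only. The ratio of observed to expected CpG dinucleotides had a median of 0.829 (0.682 to 1.11, n = 13) at renamed promoters and 0.837 (n = 244) at retained ones. It was 0.32 (0 to 1.01, n = 36) at the others, against 0.567 over 21263 promoters. Median GC content was 62.3% at renamed, 64.3% at retained, 54.3% at the other siSCR-only promoters and 56.3% over all. Within the 36 the spread was wide. Genes of other tissues had a median CpG ratio of 0.108 (0 to 0.259, n = 12) and the 5 Speer cluster genes stood at 0 to 0.0549. Those with an iKO promoter peak by gene name had a median of 0.75 (n = 9), against 0.236 (n = 27) for those without. By name the 9 include Cds2 (0.218), whose iKO peak is at another start, and the 27 include Taf4 (1.01), with an iKO summit nearby. All 13 renamed promoters exceeded every promoter of the other-tissue and Speer groups.

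**Figure D4:**
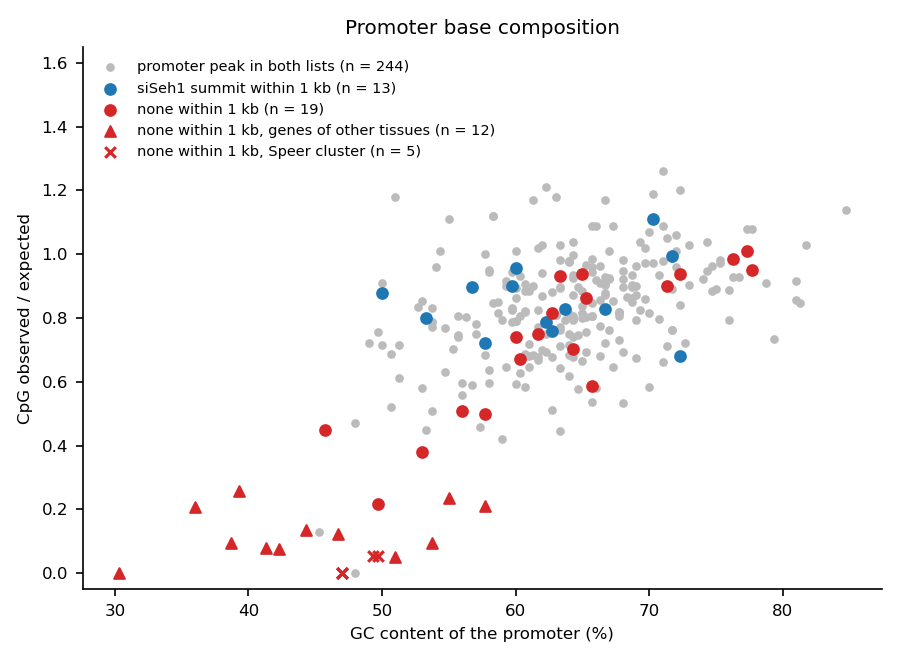
CpG observed to expected ratio against GC content (%) of 300-base RefSeq promoters, 1 symbol per gene. Blue points, the 13 renamed promoters, lie at ratios of 0.682 or more, within the range of the grey retained genes (0 to 1.26), while red triangles (12 genes of other tissues) and crosses (5 Speer cluster genes) lie at 0.259 or less, and red circles (19 other genes) span both ranges.

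Motifs were counted as exact letters on both strands of the same 300 bases. A CCAAT box, the letters bound by the trimeric factor NF-Y, was present in 12 of 13 renamed promoters (92.3%), 215 of 244 retained ones (88.1%), 25 of the 36 others (69.4%) and 8121 of 21263 promoters overall (38.2%). Kdm1b was the renamed promoter without one. Among the 36, a box was found in 8 of 9 with an iKO summit within 1 kb. These 9 are taken by position, with Taf4 and without Cds2, unlike the 9 by name above. A box was also found in 17 of 27 with neither list nearby (63%, 42.4 to 80.6%), or 13 of 23 once the Speer cluster was set aside. Among all promoter genes of a list, matched the same way, the share was 72.2% in iKO, 63.9% in siSeh1, 44% in Seh1-flag and 33.8% in Seh1 Ctrl. The GC box GGGCGG occurred in 11 of 13 renamed, 15 of 36 other, 83.6% of retained and 46.2% of all promoters. The TATA motif TATAAA ran the other way, with 0 of 13 renamed, 7 of 36 other, 3.69% of retained and 12.6% of all promoters. The 7 were Sprr2e, Krt33b, Gm11559, Krtap20-2, Rnf19b, Rnh1 and Vmn1r100.

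**Figure D5:**
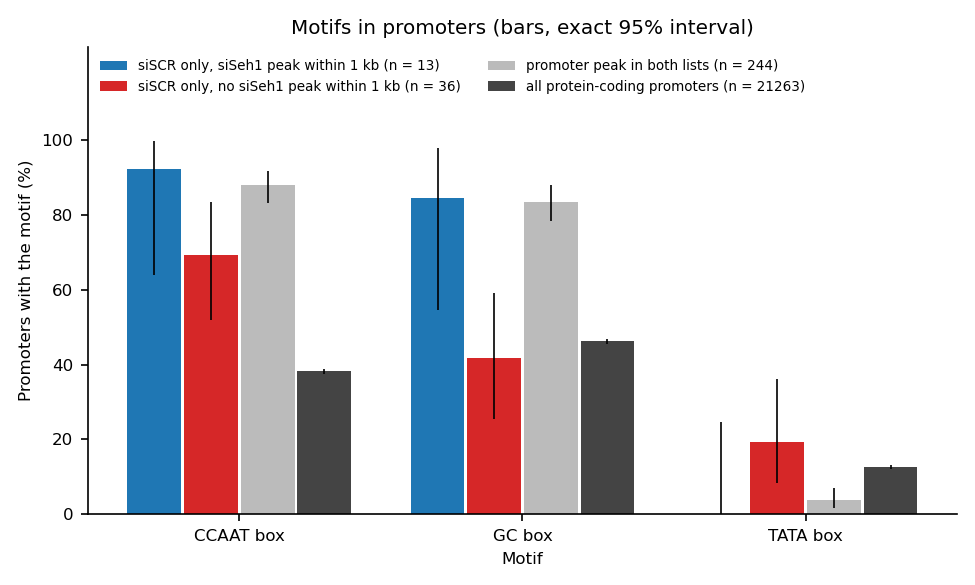
Percentage of 300-base promoters holding a CCAAT box, GC box or TATA motif on either strand in 4 sets of genes. Error bars are exact 95% intervals for counting error. Renamed and retained promoters stand near each other for the CCAAT box (92.3 and 88.1%), and siSCR-only promoters without a nearby siSeh1 summit (red) are the highest for the TATA motif (19.4%).

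The siSCR summits of renamed promoters were also close to the box. From the summit to the middle of the nearest CCAAT box the distance had a median of 18 bp (1 to 54, n = 11), with 10 of 11 within 50 bp, as at retained promoters (median 20 bp, 166 of 189 within 50 bp). At the other siSCR-only promoters with a summit and a box in the window the median was 51 bp (6 to 223, n = 15), and 7 of 15 were within 50 bp. The median number of boxes in these promoters was 4 at renamed, 3 at retained and 2 at the other siSCR-only ones. More boxes shorten the distance to the nearest, and the distances were not tested with box number matched. Hsp90b1 lay at 21 bp and Derl2 at 20 bp. Hsp90b1 was the only siSCR-only gene with the endoplasmic reticulum stress element (CCAAT, 9 bases, CCACG, which contains a CCAAT box), found in 4 retained and 30 of all 21263 promoters. The other motifs searched were rare at these promoters. CCGGAAG (ETS) occurred in Rwdd2a and Psmc3ip, GCGCATGC (NRF1) in Nudcd2, TGACGTCA (CRE) in Glyr1, TTTGGCGC (E2F) in Msh3 and AAGATGGC (YY1) in Taf4. Over all promoters these 5 were present in 11.6%, 3.52%, 2.23%, 0.635% and 3.05%.

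Of 15 lists of pathway and cell type genes, 1 held a siSCR-only gene. Of 24 genes of the unfolded protein and amino acid stress response, 6 had a siSCR promoter peak, namely Dnajb9, Dnajc3, Hsp90b1, Hspa5, Pdia4 and Sel1l, and only Hsp90b1 was siSCR-only, by name and not by position. All 5 sterol and fatty acid synthesis genes with a siSCR promoter peak were retained, among them Hmgcs1 and Insig1, as were all 5 cell cycle genes (Aurka, E2f1, E2f3, Mcm5 and Rrm2), the NuRD genes Gatad2a and Mbd3, and Ezh2. No gene of the nucleoporin, ribosomal protein, early growth response or p53 target lists had a siSCR promoter peak, so none of these could be siSCR-only. None of the 25 symbols on the core histone list had one either, but the histone genes Hist2h2aa2 and Hist2h3c2, which are not on it, did and were retained.

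At the edge of the 1000 bp rule few genes were close. On the siSCR side Gm16367 (935 bp) and Sprr2a2 (915 bp, score 3.56, rank 1183, siSeh1 2761 bp away) lay just inside and were siSCR-only, and the retained Fbxl20 (-907 bp) and Pnrc1 (982 bp) also lay just inside. Glra1 (-1025 bp), Zcchc14 (-1055 bp), Smok2b (-1064 bp) and Cidec (1066 bp) fell just outside. On the siSeh1 side Fbxo11 (-858 bp) and Dux (-932 bp) were retained, and the nearest siSeh1 peak of a siSCR-only gene by name was that of Speer4c at 2283 bp. Dux was the only retained gene with no siSeh1 summit within 1 kb of its siSCR summit (1093 bp).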

How the data were processed

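Peak lists carried HOMER annotation for mm10, per the file headers. The submitters' processing notes name Bowtie2 and HOMER, with no version, and human builds that the mouse gene names contradict. For the peak caller, threshold, input and pooling, the sources used here state nothing. The peak score deposited by the authors has no stated scale and was used only within a list. Distances to the start site in bp and gene names are those deposited by the authors.

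Members and lists were chosen with earlier results of these data known. Members are named, apart from a few items not reported here. Values were given for the 12 of highest siSCR score, those with an iKO, Seh1 or nearby siSeh1 peak, the 5 farthest from siSeh1, listed genes and those at the edge of the window, with predicted genes mostly by name. Functional groups and printed promoters were chosen after values were seen. Nearest summits, motifs and exact Clopper-Pearson intervals (counting error only) were computed with Python 3.11.15, numpy 2.4.6, pandas 2.3.3 and scipy 1.17.1, and drawn with matplotlib 3.10.9. The code was tested on simulated lists. Gene identifiers matched the GRCm38.p6 RefSeq table in 99.8% of cases. Alternatives changed the window, annotation, score limit, list length and gene types.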

Additional observations from a re-analysis of the deposited data

How the results depend on the processing

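The 64 siSCR-only genes became 52 with a 500 bp window, 81 with 2000 bp, 82 with the siSeh1 list cut to the length of the siSCR list, and 38 with siSCR peaks scoring above the median of that list. By position instead of name they were 52. With no siSeh1 peak allowed within 1000 bp of any RefSeq start of the gene, an alternative chosen after seeing the data, 39 of the 52 genes with a start in the table were left. The 16 genes with an iKO promoter peak became 10 without the renamed promoters, and 11 with the iKO list cut to the length of the siSCR list, both chosen after seeing the data. The 8 genes with a Seh1 promoter peak became 4 with a 500 bp window and 3 without the Speer cluster, the latter also chosen after seeing the data. Of 22 alternatives, 17 stayed within 1.5 times. The fall to 38, 39, 10 and 3 follows from the narrower sets these alternatives take, and for the fall to 4 the cause was not tested. No paired analysis was possible because each group had 1 library and no result comes from a test. With depth unknown, a summit not listed is not shown to be absent from the cells.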
